A study of Caenorhabditis elegans with 12 samples.

Results

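The nervous system of Caenorhabditis elegans is a small part of the worm's body, and a small set of miRNAs is known mainly from its cells. Of these, 5 miRNA genes, lsy-6, mir-124, mir-234, mir-790 and mir-791, were followed through worms kept on high glucose with and without naringin (Nar), a citrus flavonoid. They were picked with earlier results of these data known, and their entries in the count table were then taken by name, with any arm suffix. The rule found 8 of the 263 distinct mature miRNAs listed: lsy-6-3p, both arms of mir-124, miR-234-3p, and both arms of mir-790 and of mir-791. An arm is the product cut from the 5′ (5p) or 3′ (3p) side of the hairpin precursor. In most hairpins one arm is loaded onto an Argonaute protein and guides it to target mRNAs by a short seed near its 5′ end, while the other arm is mostly degraded.

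Small RNA was sequenced from wild-type N2 worms in 4 groups of 3 libraries, and RNA came from whole worms. L4 larvae were moved to plates and kept for 5 d at 20 °C, with progeny removed. Control worms were untreated. Glu worms received 2% glucose, DMSO + Glu worms 2% glucose with 0.1% DMSO, the solvent of Nar, and Nar + Glu worms 2% glucose with 25 μM Nar in the same solvent. High-glucose-induced (HGI) worms thus include every group but Control, and no group received Nar without glucose. The labels number the replicates but do not say whether they were separate cultures, so p-values measure the spread between these libraries, which may be technical.

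The libraries held 2640879 to 5868806 counts. Muscle miR-1-3p took 28.9% to 48.2% of them, and the 8 neuronal arms together took 0.0498% to 0.107%, of which miR-790-5p made up 67.2% to 81.8%. The name neuronal follows the choice of genes, and RNA from whole worms does not show which cells gave the counts. Nor can fewer neurons and less miRNA per neuron be told apart in such RNA. Levels are given as CPM, the count per 1000000 counts, after scaling with TMM, edgeR's trimmed mean of M-values, over the 12 libraries. Each Nar + Glu library had a TMM factor of 1.17 to 1.31, where the 9 others had one of 0.770 to 1.00. A miRNA is called changed at a Benjamini-Hochberg adjusted p under 0.05 in edgeR's quasi-likelihood test, adjusted over all miRNAs tested. The study's own thresholds, a fold change beyond 1.5 in either direction with an unadjusted p under 0.05, are given beside it. They are applied here to the same TMM-scaled test, whereas the study reports giving edgeR the CPM of each miRNA. SE is the standard error of a log2FC.

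lsy-6 acts in the left ASE taste neuron, where it represses the homeobox gene cog-1 and so sets the difference between the left and the right cell. miR-124 is conserved from worms to mammals, where it is a typical neuronal miRNA, and in the worm it is found mainly in ciliated sensory neurons. miR-791 acts in neurons that sense carbon dioxide, among them BAG and AFD. miR-790 is a family relative of miR-791, and miR-234 is also known from neurons.

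The 5 genes lie on 4 chromosomes in the WBcel235 assembly. The gene lsy-6 lies on chromosome V (10647232 to 10647304, plus strand), between protein-coding genes and 89 bp from the nearest, C32C4.3. The mir-124 hairpin (chromosome IV, 11871738 to 11871833, plus strand) lies in an intron of trpa-1, a temperature-sensitive ion channel gene read from the same strand, and an antisense noncoding RNA, C29E6.8, covers 75 bases of it. The mir-234 hairpin (chromosome II, 14466263 to 14466358, minus strand) lies 1330 bp from dmsr-6 and is covered over 77 bases by the antisense noncoding RNA C13B4.6. The mir-791 hairpin (chromosome X, 5809349 to 5809433, plus strand) lies between protein-coding genes, with mir-230 on the same strand 5360 bp away.

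The mir-790 hairpin (chromosome IV, 5566422 to 5566491, plus strand) lies 4300 bp from mir-228, a gene of the same strand whose product is known from glia. It also shares its place with a piRNA, a small RNA of the germline. The piRNA 21ur-1430 (5566428 to 5566448) is annotated on the same strand and covers 21 of the 22 bases of miR-790-5p (5566427 to 5566448), and none of miR-790-3p (5566466 to 5566488). Counts of miR-790-5p are therefore uncertain as counts of a miRNA alone. The sources used here do not say how reads that match both annotations were counted.

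The 8 arms differed widely in depth. cel-miR-790-5p, to use the full name of the file, was ranked 53 of 263 by mean count, with 1807 to 2503 counts a library. cel-miR-234-3p had 253 to 664 counts and cel-miR-790-3p 127 to 319. The remaining arms were scarce. cel-lsy-6-3p had 15 to 41 counts, cel-miR-124-3p 12 to 46 and cel-miR-791-3p 12 to 40, where counting error alone is 14.7% to 28.9% of a count. miR-124-5p, with 4 to 13 counts, and miR-791-5p, with 1 to 9, were below the filter on low counts in all 3 comparisons and were not tested. The spread between replicates, as a pooled SD of log2 CPM, was 0.15 for miR-790-5p, 0.17 for miR-791-3p, 0.23 for miR-790-3p and 0.28 for miR-234-3p. It was 0.37 for lsy-6-3p and 0.49 for miR-124-3p, against a median of 0.23 over the 221 miRNAs with a mean count of at least 10. Among the 20 miRNAs nearest in mean count, the median was 0.32 for lsy-6-3p and for miR-124-3p, 0.37 for miR-791-3p, 0.19 for miR-234-3p and for miR-790-3p, and 0.18 for miR-790-5p.

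**Figure D1:**
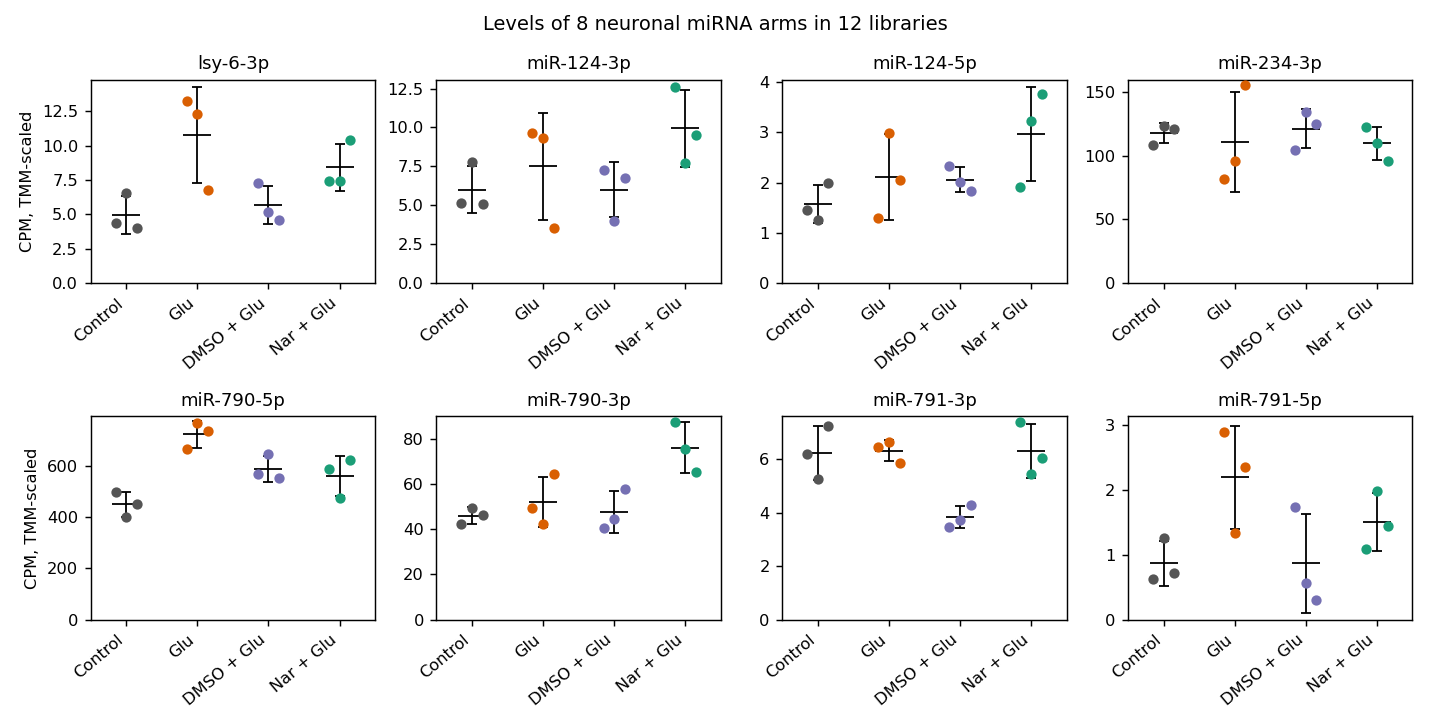
Level of each arm in CPM scaled with TMM (vertical axis, from 0) in the 4 groups (horizontal axis), with 1 point per library and the mean ± SD (n = 3) in black. miR-790-5p was highest in the Glu libraries (666 to 766 CPM), miR-790-3p highest in the Nar + Glu libraries (65.3 to 87.5) and miR-791-3p lowest in the DMSO + Glu libraries (3.48 to 4.29).

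Nar was compared with its solvent on high glucose. Of the 6 neuronal arms tested, miR-790-3p rose, none fell, and 5 were not called. Among all 219 miRNAs tested, 21.5% were called in this comparison, 9.59% higher and 11.9% lower. miR-790-3p was at 40.3, 44.7 and 57.9 CPM in DMSO + Glu and at 87.5, 75.7 and 65.3 in Nar + Glu, on counts of 139 to 189 and of 226 to 319. Each Nar + Glu library lay above each DMSO + Glu library, and also above the 6 others, of which the highest, Glu replicate 3, was at 64.3. Mean levels of 47.7 ± 9.15 and 76.1 ± 11.1 (SD, n = 3 each) corresponded to a log2FC of 0.61 (SE 0.149, 95% interval 0.30 to 0.93, adjusted p = 0.0112 from edgeR with Benjamini-Hochberg adjustment). The call rested on single libraries, with an adjusted p of 0.0708 when DMSO + Glu replicate 1 was left out, 0.0512 for DMSO + Glu replicate 2 and 0.0562 for Nar + Glu replicate 1, and between 3.66e-07 and 0.0708 over all its alternatives (edgeR or DESeq2 with Benjamini-Hochberg adjustment).

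The opposite arm of that hairpin, the abundant miR-790-5p, was at 567, 647 and 554 CPM in DMSO + Glu and at 586, 475 and 622 in Nar + Glu. The ranges overlapped, and Nar + Glu replicate 2 was the lowest of the 6. The log2FC was −0.13 (SE 0.129, 95% interval −0.41 to 0.14, adjusted p = 0.497 in edgeR with Benjamini-Hochberg adjustment), and it was 0.040 without Nar + Glu replicate 2.

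The scarce arms had higher values in Nar + Glu but were not called. miR-124-3p was at 7.26, 4.01 and 6.74 CPM in DMSO + Glu and at 12.6, 7.69 and 9.53 in Nar + Glu, a log2FC of 0.65 (SE 0.275, 95% interval 0.07 to 1.24, adjusted p = 0.104 in edgeR with Benjamini-Hochberg adjustment). miR-791-3p was at 3.48, 3.73 and 4.29 CPM in DMSO + Glu and at 7.40, 5.46 and 6.06 in Nar + Glu, a log2FC of 0.65 (SE 0.279, 95% interval 0.05 to 1.24, adjusted p = 0.114 in edgeR with Benjamini-Hochberg adjustment). lsy-6-3p was at 7.26, 5.16 and 4.60 CPM and at 7.40, 7.44 and 10.4, a log2FC of 0.49 (SE 0.277, 95% interval −0.10 to 1.08, adjusted p = 0.240 in edgeR with Benjamini-Hochberg adjustment). In each of these arms the groups did not overlap, although for lsy-6-3p DMSO + Glu replicate 1 came close to the lowest Nar + Glu library.

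Together with miR-790-3p, 4 of the 6 arms had every Nar + Glu library above every DMSO + Glu library, where 20.5% of all 219 miRNAs did and 36.5% were separate in either direction. The study's thresholds were passed upward by 3 of the 6 (miR-790-3p, miR-124-3p and miR-791-3p) and by 8.68% of all miRNAs, with 4.57% passing downward. The median log2FC of the 6 was 0.55, beside a median of −0.06 over the 219. The 2 untested arms had too few counts to add to this, with 6 to 8 counts of miR-124-5p in DMSO + Glu and 7 to 13 in Nar + Glu, and 1 to 6 and 4 to 8 of miR-791-5p.

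miR-234-3p had a log2FC below 0. It was at 104, 134 and 125 CPM in DMSO + Glu and at 122, 110 and 96.2 in Nar + Glu, with overlapping ranges. The log2FC was −0.21 (SE 0.131, 95% interval −0.49 to 0.07, adjusted p = 0.280 in edgeR with Benjamini-Hochberg adjustment), so a fall of more than 0.49 or a rise of more than 0.07 on the log2 scale lies outside the interval of this fit.

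The scale of the libraries bears on each of these values. Muscle miR-1-3p took 28.9% to 34.6% of the counts of Nar + Glu libraries, where DMSO + Glu libraries had 38.5% to 40.8%. A fit with miR-1-3p taken out changed no call of the 6 arms in this comparison. Beyond that fit, its part in the values of the neuronal arms was not tested. With total counts in place of TMM, the median log2FC of the 219 miRNAs moved from −0.06 to 0.37. On that scale miR-790-3p had a log2FC of 1.04, miR-124-3p 1.10, miR-791-3p 1.08 and lsy-6-3p 0.94, and each of these passed the adjusted p (at most 0.00604 in edgeR with Benjamini-Hochberg adjustment). Of all 219 miRNAs, 89 were called higher on that scale and 2 lower. miR-234-3p turned to 0.22 and miR-790-5p to 0.30, below that median and not called. The order of the 6 log2FC was the same on both scales. A change of scaling moves all log2FC by a similar amount, so it could hardly alter this order.

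**Figure D2:**
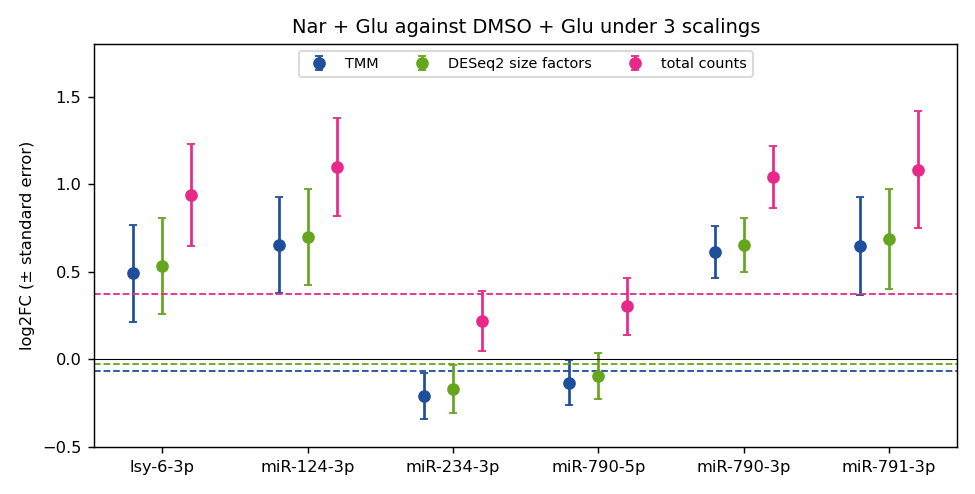
log2FC of Nar + Glu against DMSO + Glu (vertical axis, ± SE) for the 6 tested arms (horizontal axis) with TMM (blue), DESeq2 size factors (green) and total counts (pink). Dashed lines give the median of all 219 miRNAs under each scaling, −0.06, −0.02 and 0.37, and miR-234-3p and miR-790-5p lie below the dashed line of their scaling while the other 4 lie above it.

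Glucose alone was compared with untreated worms. Of the 6 arms tested, lsy-6-3p and miR-790-5p rose, none fell and 4 were not called. Over all 223 miRNAs tested in this comparison 8.52% were called, 3.59% higher and 4.93% lower. Both arms also passed the study's thresholds upward, as did 5.38% of all miRNAs, while 8.52% passed downward. In both, every Glu library lay above every Control library, which held for 18.4% of the 223. miR-790-5p was at 497, 399 and 452 CPM in Control and at 666, 766 and 735 in Glu. The groups were well apart, since the highest Control library lay at 497 and the lowest Glu library at 666. The means of 450 ± 48.9 and 722 ± 51.6 (SD, n = 3 each) gave a log2FC of 0.65 (SE 0.155, 95% interval 0.33 to 0.97, adjusted p = 0.00677 in edgeR with Benjamini-Hochberg adjustment). Over its alternatives the log2FC was 0.59 to 0.72, and the adjusted p ranged from 6.01e-05 to 0.0986 (edgeR or DESeq2, Benjamini-Hochberg adjustment). It rose above 0.05 without Control replicate 2 (0.0599), Control replicate 3 (0.0986) or Glu replicate 2 (0.0605), and with total counts as the scale (0.0868), all from edgeR with that adjustment.

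lsy-6-3p was at 4.34, 6.51 and 3.99 CPM in Control and at 13.2, 12.3 and 6.76 in Glu, on 21 to 31 counts and on 23 to 41. All Glu libraries lay above all Control libraries, but Glu replicate 3 exceeded Control replicate 2 by only a small margin. The log2FC was 1.08 (SE 0.302, 95% interval 0.46 to 1.70, adjusted p = 0.0232 in edgeR with Benjamini-Hochberg adjustment), which ranked 2 among the 223 miRNAs by size of the rise. Its adjusted p was 0.127 without Control replicate 1, 0.219 without Control replicate 3, 0.162 without Glu replicate 1 and 0.159 without Glu replicate 2, within 0.000378 to 0.219 over all its alternatives (edgeR or DESeq2 with Benjamini-Hochberg adjustment).

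The opposite arm miR-790-3p was not called. It was at 42.2, 49.6 and 46.3 CPM in Control and at 49.6, 42.3 and 64.3 in Glu, a log2FC of 0.14 (SE 0.195, 95% interval −0.26 to 0.55, adjusted p = 0.724 in edgeR with Benjamini-Hochberg adjustment). miR-791-3p overlapped between the groups, at 6.20, 5.25 and 7.26 CPM in Control and 6.45, 6.65 and 5.87 in Glu, with a log2FC of −0.02 (SE 0.280) and a 95% interval of −0.60 to 0.55.

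For miR-124-3p and miR-234-3p the Glu libraries were too far apart to place the group. miR-124-3p was at 5.17, 7.77 and 5.08 CPM in Control and at 9.67, 9.32 and 3.52 in Glu, so that the Glu group held the lowest of the 12 libraries in Glu replicate 3. miR-234-3p was at 109, 123.5 and 121 CPM in Control and at 81.5, 95.8 and 155 in Glu, where replicate 3 was the highest of the 12 libraries and replicate 1 the lowest. Their log2FC were 0.27 (SE 0.328) and −0.11 (SE 0.203), and neither was called. The pair of neuronal miRNAs thus deviated in opposite directions in Glu replicate 3.

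The effect of the solvent on glucose was examined last. No arm was called between DMSO + Glu and Glu, and 0 of the 215 miRNAs tested were (0%), with edgeR's quasi-likelihood test or with DESeq2. At an unadjusted p under 0.05 there were 22 miRNAs, of which lsy-6-3p and miR-791-3p are 2. Both passed the study's thresholds downward, as did 2.33% of all miRNAs, while 3.72% passed upward and 6.05% in all. miR-791-3p was at 6.45, 6.65 and 5.87 CPM in Glu and at 3.48, 3.73 and 4.29 in DMSO + Glu, a log2FC of −0.69 (SE 0.228, 95% interval −1.20 to −0.19, adjusted p = 0.302 in edgeR with Benjamini-Hochberg adjustment). Its raw counts were 20 in each Glu library and 12 to 14 in those of DMSO + Glu.

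lsy-6-3p had a log2FC of −0.88 in this comparison (SE 0.305, 95% interval −1.56 to −0.21, adjusted p = 0.302 in edgeR with Benjamini-Hochberg adjustment), and the groups overlapped, at 6.76 CPM in Glu replicate 3 and 7.26 in DMSO + Glu replicate 1. Without Glu replicate 3 its adjusted p was 0.0359, the lowest over its alternatives, which reached 0.732 (edgeR or DESeq2 with Benjamini-Hochberg adjustment). miR-790-5p had a log2FC of −0.27 (SE 0.130) with the DMSO + Glu libraries all below those of Glu, a separation that 11.6% of all miRNAs showed in this direction. The remaining arms, miR-124-3p at −0.28 (SE 0.371), miR-790-3p at −0.11 (SE 0.193) and miR-234-3p at 0.15 (SE 0.222), overlapped between the groups.

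**Figure D3:**
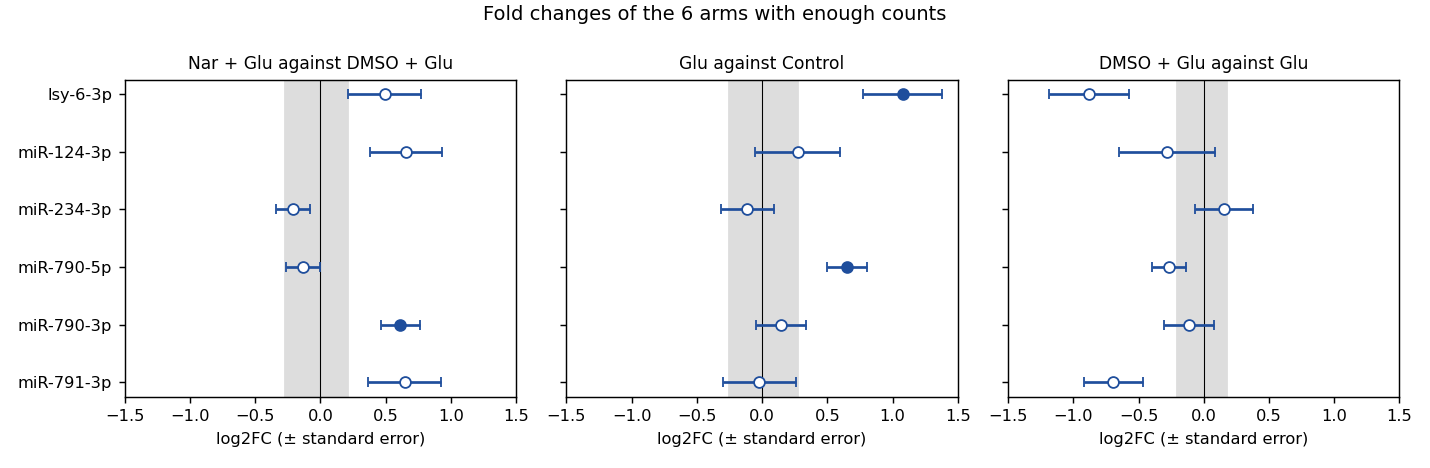
log2FC ± SE (horizontal axis) of the 6 tested arms (vertical axis) in the 3 comparisons, with filled points for an adjusted p under 0.05 and a grey band for the middle 50% of all miRNAs tested. Filled points stand for miR-790-3p in the Nar comparison (0.61) and for lsy-6-3p (1.08) and miR-790-5p (0.65) in the glucose comparison.

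The comparisons share libraries, so the order of the 4 groups was read from the levels. miR-791-3p was highest by small margins in Glu and Nar + Glu, followed by Control, with means of 6.32 ± 0.404, 6.31 ± 0.996 and 6.24 ± 1.00 CPM whose differences were below their spread. DMSO + Glu stood lowest, at 3.83 ± 0.414 CPM (SD, n = 3 each). The highest DMSO + Glu library, at 4.29, lay below the lowest of the 9 others, at 5.25, on 12 to 14 counts in DMSO + Glu. How many of all miRNAs have 1 group apart from the 9 other libraries was not counted, for this or any other arm. For miR-790-5p the order was Control, Nar + Glu (561 ± 76.6), DMSO + Glu (589 ± 50.4) and Glu. Nar + Glu and DMSO + Glu did not differ beyond their spread, Nar + Glu overlapped with Control, and Glu stood above the rest.

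For miR-790-3p the 3 groups without Nar, Control (46.0 ± 3.71 CPM), DMSO + Glu and Glu (52.1 ± 11.2), did not differ beyond their spread, and Nar + Glu stood above them. For lsy-6-3p the order was Control (4.95 ± 1.37 CPM), DMSO + Glu (5.67 ± 1.40), Nar + Glu (8.41 ± 1.72) and Glu (10.8 ± 3.497), with overlap between Control and DMSO + Glu, between Nar + Glu and Glu, and also between DMSO + Glu and Glu, while DMSO + Glu lay narrowly below Nar + Glu. The means of miR-124-3p ran from 6.004 ± 1.74 CPM in DMSO + Glu and 6.01 ± 1.53 in Control through 7.503 ± 3.45 in Glu to 9.94 ± 2.49 in Nar + Glu, each overlapping with its neighbour. Those of miR-234-3p spanned only 110 ± 13.1 CPM in Nar + Glu to 121 ± 15.5 in DMSO + Glu (SD, n = 3 each), and no neighbours differed beyond their spread.

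The arms of mir-790 were set against each other within each library, since a ratio of counts does not move with the scaling. The count of miR-790-5p was 6.27 to 9.51 times that of miR-790-3p in the Nar + Glu libraries, 9.54 to 14.4 times in those of DMSO + Glu, 11.4 to 18.1 times in those of Glu and 8.04 to 11.8 times in Control libraries. As log2 ratios the means, in the same order, were 2.88 ± 0.32, 3.64 ± 0.33, 3.81 ± 0.34 and 3.28 ± 0.27 (SD, n = 3 each). The ratio was 0.76 lower on the log2 scale in Nar + Glu than in DMSO + Glu, a difference written as −0.76 (exact permutation test, two-sided, p = 0.1, the lowest that this test can give for 3 libraries against 3). The separation was narrow, as replicate 3 of both groups had a log2 ratio of 3.25. Glu exceeded Control by 0.53 with overlap (exact permutation p = 0.2), and DMSO + Glu and Glu differed by −0.17 (exact permutation p = 0.6).

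The ratio of miR-790-5p to its relative miR-791-3p did not overlap between the groups of any of the 3 comparisons. DMSO + Glu libraries had ratios of 125 to 167, those of Nar + Glu 77.7 to 100.2, those of Glu 101 to 122 and Control libraries 61.6 to 78.8. The separation of DMSO + Glu from Glu was narrow, at 125 for the lowest DMSO + Glu library and 122 for the highest Glu library. It rested on 12 to 14 counts of miR-791-3p in DMSO + Glu libraries and 20 in each Glu library. The differences in log2 ratio were 0.64 for Glu against Control, 0.41 for DMSO + Glu against Glu and −0.77 for Nar + Glu against DMSO + Glu (exact permutation p = 0.1 for each, the smallest possible). Among all 28 pairs of arms in 3 comparisons, 84 tests in all, 16 reached this smallest p, and the adjusted p of each was 0.525 (exact permutation test with Benjamini-Hochberg adjustment). This permutation test cannot go below 0.1 with 3 libraries against 3, so no ratio could pass the threshold by it.

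**Figure D4:**
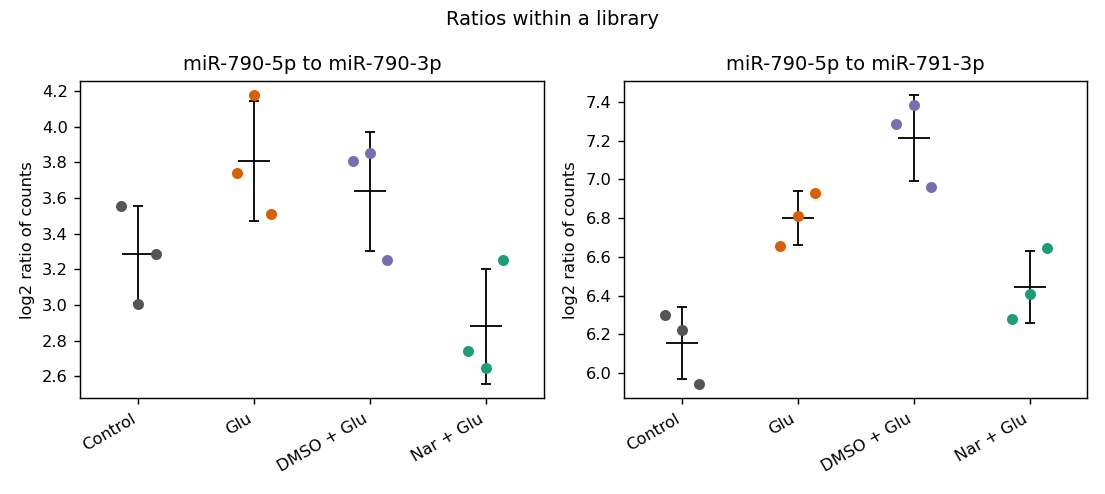
log2 ratio of the counts of miR-790-5p to miR-790-3p (left) and to miR-791-3p (right) in each library of the 4 groups, with the mean ± SD (n = 3) in black. The left ratio was lowest in Nar + Glu (2.88 ± 0.32) and the right ratio highest in DMSO + Glu (7.21 ± 0.22).

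Over the 12 libraries the correlations among arms were of both signs. The Pearson r of log2 CPM, given as a description without a test, was 0.00 between miR-790-5p and miR-790-3p, 0.17 between the arms of mir-124 and 0.21 between those of mir-791. These points share the treatment groups and the scaling of each library. lsy-6-3p and miR-124-3p had an r of 0.64 with each other and of −0.67 and −0.65 with miR-234-3p.

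By the fixed rule, the 3 miRNAs most like each arm were named from 220 or 221 with a mean count of at least 10. For miR-790-3p these were miR-49-5p (r = 0.90), miR-4920 (0.90) and miR-1820-5p (0.83). For miR-790-5p they were miR-90-3p (0.86), miR-56-3p (0.77) and miR-1821-3p (0.76). miR-1821-3p also stood first for lsy-6-3p (0.88), ahead of miR-55-3p (0.82) and miR-53-5p (0.76).

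For miR-124-3p the rule gave miR-232-3p (0.89), miR-239a-5p (0.79) and miR-43-3p (0.78), and for miR-791-3p miR-229-5p (0.77), miR-240-5p (0.73) and miR-236-5p (0.70). miR-234-3p was most like miR-1-5p (0.80), the scarce arm of the muscle miRNA, then miR-230-5p (0.77) and miR-36-5p (0.75). The arms with the fewest counts were named as well, miR-124-5p with miR-73-3p (0.69), miR-62 (0.66) and miR-231-5p (0.65), and miR-791-5p with miR-786-3p (0.75), lsy-6-3p (0.74) and miR-1821-3p (0.63). Over all miRNAs compared, the median r with each arm lay between −0.0026 and 0.058.

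A second list held other miRNAs with a described role in neurons or glia: let-7-5p and lin-4-5p, which time larval development and act in axons, miR-71-5p, which sets asymmetry of the AWC olfactory neurons, miR-79-3p, which acts in the epidermis on the position of axons, miR-137-3p and glial miR-228-5p. Of these 6, miR-137-3p had no entry of that name in the count table, and 5 were tested. Relatives by seed were not searched, so the missing name says nothing of a worm relative under another name. Against DMSO + Glu, let-7-5p and lin-4-5p fell in Nar + Glu, none rose, and the median log2FC was −0.29, beside 11.9% called lower, 9.59% called higher and a median of −0.06 over all 219 miRNAs. lin-4-5p had a log2FC of −0.48 (SE 0.116, adjusted p = 0.0112 in edgeR with Benjamini-Hochberg adjustment) and let-7-5p one of −0.75 (SE 0.139). As CPM of total counts, without TMM, lin-4-5p was at 587 ± 89.0 in DMSO + Glu and 568 ± 21.5 in Nar + Glu. On that scale let-7-5p was at 1434 ± 68.6 and 1156 ± 232 (SD, n = 3 each). With total counts, 2 of all 219 miRNAs were called lower. Neither Glu against Control nor DMSO + Glu against Glu gave a call among the 5. miR-228-5p, from the gene next to mir-790, had means of 5552 ± 279 CPM (Control), 6154 ± 1034 (Glu), 5635 ± 470.4 (DMSO + Glu) and 5561 ± 325 (Nar + Glu). Its log2FC were 0.12, −0.10 and −0.08 for glucose, solvent and Nar. The other arm, miR-228-3p, had means of 23.1 ± 3.37, 30.7 ± 3.77, 34.9 ± 6.84 and 42.1 ± 5.85 CPM in the same order (SD, n = 3 for every group). For miR-228-3p the log2FC were 0.38, 0.21 and 0.20, and none was called. Its Glu libraries all lay above those of Control, as for 18.4% of the 223 miRNAs.

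Another list held miR-1-3p (muscle), miR-60-3p (intestine) and the 8 miR-35 family 3p arms (embryo and germline), and all 10 were tested. None was at 0 in the libraries, and together they took 51.7% to 58.4% of the counts of Control libraries, 52.4% to 56.2% of Glu, 53.3% to 53.8% of DMSO + Glu and 45.4% to 48.0% of Nar + Glu libraries. In Nar + Glu against DMSO + Glu, miR-1-3p and miR-35-3p fell and none rose, with a median log2FC of −0.16 and a range of −0.72 to 0.44, beside the same 11.9% called lower and median of −0.06 over all miRNAs. As CPM of total counts, miR-35-3p was at 51950 ± 3749 in DMSO + Glu and 49629 ± 4026 in Nar + Glu. On that scale miR-1-3p was at 397144 ± 11746 and 326510 ± 32864 (SD, n = 3 each). In Glu against Control, 1 of the 10, miR-42-3p, rose and none fell, with a median of 0.0056 and a range of −0.12 to 0.80, beside 3.59% called higher and a median of −0.0019 over all 223, and between DMSO + Glu and Glu none was called. Apart from the fit without miR-1-3p, their part in the values of the neuronal arms was not tested.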

How the data were processed

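Per the authors, low-quality reads were discarded, adapters and very short reads were trimmed off with Cutadapt 1.14, and mirdeep2 gave the count of each mature miRNA. They deposited raw read counts per mature miRNA, without normalization and with replicates kept apart. The submitters' processing notes name edgeR and the WBcel235 build. How reads that match more than 1 miRNA were handled, and from which miRBase release the names come, is not given in the sources used. The combined table equalled the library files in 12 of 12 libraries. Its 268 entries carry 263 distinct names. Where a name was repeated (5 names), its first entry was used.

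Counts were tested with edgeR 4.0.16 in R 4.3.3 (quasi-likelihood test, TMM, filterByExpr with a minimum count of 10 and a total of 15) on the 6 libraries of the groups compared. p-values were adjusted by the Benjamini-Hochberg method over 219, 223 or 215 miRNAs. Ratios were taken with a pseudocount of 0.5 and compared by an exact permutation test, two-sided, over the 20 splits of 6 libraries. The fits were also run on simulated counts with as many rises as falls built in. That run checks the code and does not bear on the scaling of the Nar + Glu libraries.

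Depth was 4990586 to 5868806 counts in Control, 3033268 to 4029351 in Glu, 3267311 to 3849726 in DMSO + Glu and 2640879 to 3141140 in Nar + Glu. Counting error is the percentage 1/√count, and PCR reads are not independent molecules. Replicates differed by a chi-square per degree of freedom of 20.4 to 707, so none was counted as a repeat run of the same library. This check cannot tell separate cultures from separate libraries of the same RNA.

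The members and lists were chosen with earlier results of these data known. The miRNAs named are the members, those of the lists, miR-228-3p, and the 3 with the highest Pearson r (log2 CPM, prior count 2) for each member. Mature sequences were not used here, so relatives by seed were not searched. Gene positions come from Ensembl's WBcel235 annotation. Alternatives were DESeq2 1.42.0, its size factors, total counts, no filter, a single fit of all 12 libraries, a block for the replicate number, miR-1-3p taken out, each library left out, and a ratio pseudocount of 2. Plots were drawn with matplotlib 3.10.9.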

Additional observations from a re-analysis of the deposited data

How the results depend on the processing

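Of the alternative values for the 6 tested arms in 3 comparisons, 207 kept their direction and their side of the adjusted p, 12 lost the call, 4 gained one and 11 changed sign. With total counts alone, Nar + Glu against DMSO + Glu gained calls for lsy-6-3p (log2FC 0.94), miR-124-3p (1.10) and miR-791-3p (1.08), miR-234-3p turned to 0.22 and miR-790-5p to 0.30, and Glu against Control lost miR-790-5p (0.68). For miR-791-3p in Glu against Control the log2FC was 0.0098 with all 12 libraries in 1 fit and 0.018 without miR-1-3p.

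Correlations of same-numbered deviations were −0.16 to 0.31, 0.08 to 0.27 and 0.02 to 0.18 in the 3 comparisons. Only in Glu against Control did each library correlate best with its own number. With 3 libraries per group, these values cannot settle whether the replicate numbers mark shared batches. With the replicate block miR-790-3p had a log2FC of 0.62 (adjusted p = 0.0510, edgeR) for Nar, and the calls over all miRNAs went from 47 to 27 for Nar and from 19 to 47 for glucose. The block changed no other call of the 6 arms.

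The 47 Nar calls (21 higher, 26 lower) became 91 with total counts (89 and 2), 37 with DESeq2 size factors (21 and 16), 37 with no filter (24 and 13), 36 without miR-1-3p (24 and 12) and 25 in the 12-library fit (17 and 8), and the 19 of glucose (8 and 11) became 36 (20 and 16). With each library left out, the calls numbered 18 to 43 for Nar, 4 to 44 for glucose and 0 to 5 for the solvent. These fits gave log2FC of 0.53 to 0.78 for miR-790-3p, −0.18 to 0.040 for miR-790-5p, 0.42 to 0.89 for miR-124-3p, 0.36 to 0.73 for lsy-6-3p and −0.29 to −0.052 (without Nar + Glu replicate 3) for miR-234-3p with Nar. With glucose they gave 0.89 to 1.35 for lsy-6-3p, 0.032 (without Glu replicate 1) to 0.63 (without Glu replicate 3) for miR-124-3p, 0.59 to 0.72 for miR-790-5p, −0.44 to 0.058 for miR-234-3p, −0.041 to 0.26 for miR-790-3p and −0.10 to 0.091 for miR-791-3p. With the solvent they gave −1.14 to −0.73 for lsy-6-3p, −0.64 (without Glu replicate 3) to −0.066 (without DMSO + Glu replicate 2) for miR-124-3p, −0.058 to 0.47 for miR-234-3p, −0.26 to 0.065 for miR-790-3p and −0.32 to 0.019 for the log2 ratio of miR-790-5p to miR-790-3p. The cause of these shifts was not tested. Counts under 50 limit lsy-6-3p, miR-124-3p and miR-791-3p.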
